A study of Homo sapiens with 21 samples.

Results

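MM.1S myeloma cells that carried a control knockdown were compared with untreated MM.1S cells, so that the control arm of the knockdown experiment is set against cells without it. The comparison used 6 of the 21 RNA-seq libraries of the series, 3 of control knockdown cells and 3 of untreated cells, and 12559 of the 17691 genes listed, namely those with at least 1 unit of TPM, the read density of a transcript scaled to a fixed total per library, in at least 3 of the 21 libraries. MM.1S is an established human multiple myeloma line of plasma cell type, and each group was described by the submitters as 3 biological replicates.

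The control knockdown libraries carry the genotype label "Control knockdown" and the treatment label "Non-treated"; the sources used here do not state the control hairpin, its delivery or its time in the cells. In the ARID2 knockdown group and the group labelled Aiolos knockdown, a lentivirus carried a short hairpin RNA against ARID2, a subunit of the PBAF chromatin remodelling complex, or against Aiolos, the lymphoid transcription factor encoded by IKZF3, for 72 h. The untreated libraries are labelled "Wild type" and "Non-treated". The other 9 libraries, of wild type cells exposed for 24, 48 or 72 h to pomalidomide at 1 µM, entered the shared estimate of the spread. The libraries labelled Aiolos knockdown went against their label at the transcript level. IKZF3 stood at 127, 121 and 141 TPM there, against 83.5, 79.2 and 81.4 TPM in control knockdown cells.

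Cells meet amino acid shortage, unfolded protein in the endoplasmic reticulum, haem shortage or double-stranded RNA with a common programme, the integrated stress response: a kinase phosphorylates the translation factor eIF2, general translation falls and translation of ATF4 rises. ATF4 is a transcription factor that switches on amino acid synthesis, amino acid transport, tRNA charging and feedback genes such as CHAC1, DDIT3 and TRIB3. A separate programme, the heat shock response, is driven by HSF1 and supplies cytosolic chaperones. Myeloma cells make and export large amounts of immunoglobulin and are known to depend on both chaperones and the secretory pathway.

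The promoter sequences below are shown because, of the gene lists examined, those of these programmes had the highest and the lowest median difference. The composite C/EBP-ATF element read by ATF4 and its partners was searched as TGATGNAA on both strands (TTNCATCA on the other), and 3 adjoining heat shock units were searched as GAANNTTCNNGAA on both strands (TTCNNGAANNTTC on the other), in the 250 bases before each RefSeq gene start on GRCh38.p14. TGATGNAA was present in 5 of 26 integrated stress response genes with a promoter in the table (19.2%; ATF3, CHAC1, ASNS, CEBPG and FGF21) and in 3 of 16 aminoacyl-tRNA synthetase genes (18.8%; AARS1, GARS1 and IARS1), against 1061 of all 27305 genes (3.89%). GAANNTTCNNGAA was present in 7 of 23 chaperone genes (30.4%), against 152 of all 27305 genes (0.557%). A match is a description of the letters, and no binding was measured. The next lines give 30 bases of some of the matched promoters, 5′ to 3′ on the strand of the gene, with the matched letters in capitals. All those shown belong to genes that passed the expression test described below. Matched promoters not shown include those of CEBPG and HSPA6, which did not pass, and FGF21, which was below the expression filter. Others not shown belong to genes that passed, such as IARS1.
CHAC1, chr15:40953251-40953280, plus strand: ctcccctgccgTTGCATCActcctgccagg
ASNS, chr7:97872458-97872487, minus strand: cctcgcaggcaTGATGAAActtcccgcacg
ATF3, chr1:212565205-212565234, plus strand: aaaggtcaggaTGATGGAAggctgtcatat
GARS1, chr7:30594834-30594863, plus strand: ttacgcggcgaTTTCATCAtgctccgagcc
AARS1, chr16:70289675-70289704, minus strand: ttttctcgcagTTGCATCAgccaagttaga
HSPA8, chr11:123062346-123062375, minus strand: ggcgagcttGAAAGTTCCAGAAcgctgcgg
HSP90AA1, chr14:102087112-102087141, minus strand: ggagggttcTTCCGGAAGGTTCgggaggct
HSP90AB1, chr6:44247769-44247798, plus strand: gggagcaggTTCTGGAAGATTCatgggctc
The match lay 209 bases before the start of CHAC1, 68 before that of ASNS and 33 before that of GARS1, the gene the deposited table calls GARS. In GENCODE 29 the ATF3 window lies outside any gene, the HSP90AB1 window lies in the gene but in no exon, the AARS1 window touches an exon of the neighbouring gene DDX19B, and the other 5 touch exons of their own gene's transcripts.

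Expression in the deposited table is in TPM, so sequencing depth is unknown, and every difference below is on the log2(TPM + 1) scale, control knockdown minus untreated, which understates the change of genes near 1 TPM. Adjusted p-values are from limma fitted across all 12559 genes, with Benjamini-Hochberg adjustment and a threshold of 0.05. Across genes, log2 values of 2 control knockdown libraries correlated at r of 0.996 in all 3 pairs, those of 2 untreated libraries at 0.994 to 0.995, and those of a control knockdown and an untreated library at 0.986 to 0.987. Of the 12559 genes, 2169 (17.3%) were higher and 3570 (28.4%) were lower in control knockdown cells, 5739 in all (45.7%), so a call on its own is common here. The libraries of the groups did not overlap for 58.6% of genes (22.5% higher and 36.1% lower), which is the background for each statement below that libraries do not overlap. At least a 2-fold change was rare: 88 genes (0.701%) were that much higher and 21 (0.167%) that much lower. The median difference of all genes was −0.04. Median-of-ratios scaling moved the share of calls that were higher to 44.9%, quantile normalization moved it to 46.7%, and leaving out the mitochondrial genes moved it to 44.9%, against 37.8% on the TPM scale as deposited. Any transduction, the hairpin and time in culture cannot be told apart in this design, and within bulk RNA a change in the mix of cell states and a change within each cell cannot be told apart either.

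**Figure D1:**
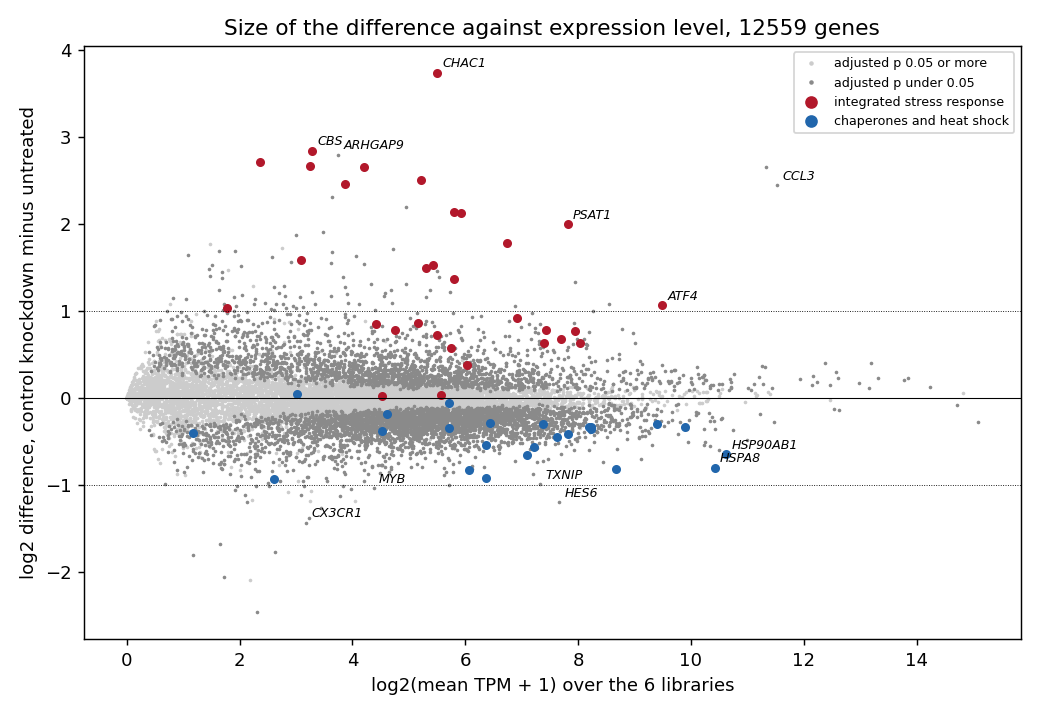
Each point is 1 of 12559 genes; the horizontal axis is log2(mean TPM + 1) over the 3 control knockdown and 3 untreated libraries and the vertical axis is the log2 difference, control knockdown minus untreated. Dotted lines mark 2-fold. CHAC1 stands highest at 3.73, integrated stress response genes (red) lie above 0 and most chaperone genes (blue) lie below it.

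Most plasma cell markers were high in both groups, with 2 of the 10 low. The plasma cell markers XBP1, MZB1, TNFRSF17, SLAMF7, SDC1 and JCHAIN all averaged over 600 TPM in both groups, whereas CD38 averaged 7.81 TPM in control knockdown and 6.92 TPM in untreated cells and CD27 averaged 1.31 TPM in control knockdown and 1.71 TPM in untreated cells; the summed TPM of the 10 plasma cell markers was 11530 to 11740 in control knockdown cells and 10810 to 11000 in untreated cells. Of these 10 markers 6 rose and 1 fell, against 17.3% higher and 28.4% lower among all genes. SDC1 averaged less in control knockdown (601 TPM) than in untreated cells (686 TPM). MS4A1, CD3D, CD3G and KRT19, which mark B cells, T cells and epithelium, were listed at 0 in all 6 libraries, but other members of such lists were not: CR2, a mature B cell marker, averaged 52.9 TPM in control knockdown and 40.7 TPM in untreated cells (0.37 ± 0.05, adjusted p = 5.43e-06), and HBB, an erythroid marker, averaged 15.2 TPM in control knockdown and 13.1 TPM in untreated cells. The summed epithelial and stromal markers were 59.6 to 67.5 TPM in control knockdown cells and 46.6 to 48.4 TPM in untreated cells, nearly all from VIM and PECAM1 (PECAM1 averaged 17.9 TPM in control knockdown and 4.88 TPM in untreated cells); their part in the results was not tested. Mitochondrially encoded mRNA took 17.2% ± 0.373 of the listed TPM in control knockdown libraries and 15.5% ± 0.13 in untreated libraries (SD, n = 3 each), with no overlap, and a two-sided exact permutation test gave its smallest possible p of 0.1.

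Many of the largest rises were in integrated stress response genes. Of 34 genes listed, 31 passed the filter (STC2, NUPR1 and FGF21 did not); 29 of the 31 rose, 0 fell and 2 did not pass (ATF5 and CEBPG, both at 0.03), against 17.3% higher among all genes. The median difference was 1.07, and 17 of the 31 rose at least 2-fold, against 0.701% of all genes. Put the other way, 17 of the 88 genes at least 2-fold higher and 10 of the 15 largest named rises were in this list. The list was written with earlier results of these libraries known, so its count describes these samples and is not independent evidence. Its genes took 0.389%, 0.419% and 0.427% of the listed TPM in the 3 control knockdown libraries, against 0.192%, 0.196% and 0.196% in the untreated libraries (two-sided exact permutation test, smallest possible p of 0.1). For 25 of the 31 genes the lowest of the 3 control knockdown libraries was replicate 1.

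ATF4 itself stood at 933, 983 and 1009 TPM in control knockdown cells, against 457, 470 and 468 TPM in untreated cells. The gene lies at chr22:39519695-39522685 on the plus strand (GENCODE 29, hg38), and its difference was 1.07 ± 0.03 (SE, adjusted p = 1.17e-14). The largest rise of any gene called was that of CHAC1 (chr15:40952962-40956519, plus strand), which encodes an enzyme that degrades glutathione. It had 78.1, 83.0 and 89.8 TPM in control knockdown cells, against 5.49, 5.26 and 5.33 TPM in untreated cells, a difference of 3.73 ± 0.09 (adjusted p = 6.65e-17). DDIT3, which encodes the CHOP transcription factor, had 74.3, 85.1 and 78.2 TPM in control knockdown cells, against 28.9, 28.6 and 32.6 TPM in untreated cells (1.37 ± 0.10, adjusted p = 1.79e-09). SESN2, an inhibitor of mTORC1 signalling that p53 also induces, had 86.7, 90.1 and 92.1 TPM in control knockdown cells, against 19.1, 20.6 and 19.4 TPM in untreated cells (2.13 ± 0.06, adjusted p = 3.14e-15). For none of these genes did a control knockdown library reach down to an untreated one.

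The other transcription factors and feedback genes rose less. ATF3 rose by 0.85, CEBPB by 0.86, DDIT4 by 0.78 and PPP1R15A, the phosphatase subunit that reverses eIF2 phosphorylation, by 0.58. TRIB3, a pseudokinase that feeds back on ATF4, had 67.5, 77.8 and 74.7 TPM in control knockdown cells, against 55.4, 53.9 and 58.9 TPM in untreated cells, a rise of only 0.38 ± 0.06 (adjusted p = 6.03e-05). Of the 4 eIF2 kinases, the transcript of 1 rose and those of 2 fell. EIF2AK4, the sensor of uncharged tRNA, differed by −0.02 ± 0.04 (adjusted p = 0.748) and EIF2AK3, the sensor in the endoplasmic reticulum, rose by 0.11. EIF2AK1, the haem-regulated kinase, fell by 0.19 and EIF2AK2, the kinase PKR that binds double-stranded RNA, fell by 0.49 (adjusted p = 7.31e-05). Transcript levels say nothing of kinase activity.

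Enzymes that make serine, glycine, asparagine and cysteine rose together. PHGDH, PSAT1 and PSPH catalyse the successive steps from a glycolytic intermediate to serine. PHGDH had 51.8, 56.3 and 62.8 TPM in control knockdown cells, against 18.7, 19.6 and 20.4 TPM in untreated cells (1.49 ± 0.08, adjusted p = 5.65e-11). PSAT1 had 337, 364 and 375 TPM in control knockdown cells, against 90.1, 90.5 and 87.3 TPM in untreated cells (1.99 ± 0.06, adjusted p = 3.14e-15). PSPH had 89.5, 103 and 101 TPM in control knockdown cells, against 20.9, 23.1 and 20.8 TPM in untreated cells (2.13 ± 0.07, adjusted p = 4.35e-14). All 3 enzymes were thus well apart between the groups, PHGDH least.

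The mitochondrial folate enzymes, which pass on the carbon unit of serine, rose by smaller amounts except for 1. SHMT2 rose by 0.64 and MTHFD2 by 0.77, whereas ALDH1L2 had 53.1, 66.2 and 66.7 TPM in control knockdown cells, against 10.8, 9.48 and 10.1 TPM in untreated cells (2.50 ± 0.11, adjusted p = 1.62e-12). ASNS, asparagine synthetase, had 142, 173 and 181 TPM in control knockdown cells, against 45.8, 49.9 and 45.8 TPM in untreated cells (1.78 ± 0.07, adjusted p = 3.44e-13). Of the transsulfuration enzymes that make cysteine, CTH rose by 1.58 and CBS had 11.8, 17.6 and 19.1 TPM in control knockdown cells, against 1.53, 1.23 and 1.33 TPM in untreated cells (2.84 ± 0.17). CBS is uncertain because its near-identical copy CBSL could share its reads; CBSL also rose, by 1.64. PCK2, mitochondrial PEP carboxykinase, rose by 2.46, GPT2, mitochondrial alanine aminotransferase, by 1.53, and ASS1, the arginine pathway enzyme argininosuccinate synthase outside the list, by 2.31 ± 0.18. Among secreted products, INHBE, an inhibin beta subunit, had 7.10, 7.93 and 8.80 TPM in control knockdown cells, against 0.101, 0.410 and 0.642 TPM in untreated cells, and ADM2, a calcitonin-family peptide, rose by 2.67 ± 0.14.

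**Figure D2:**
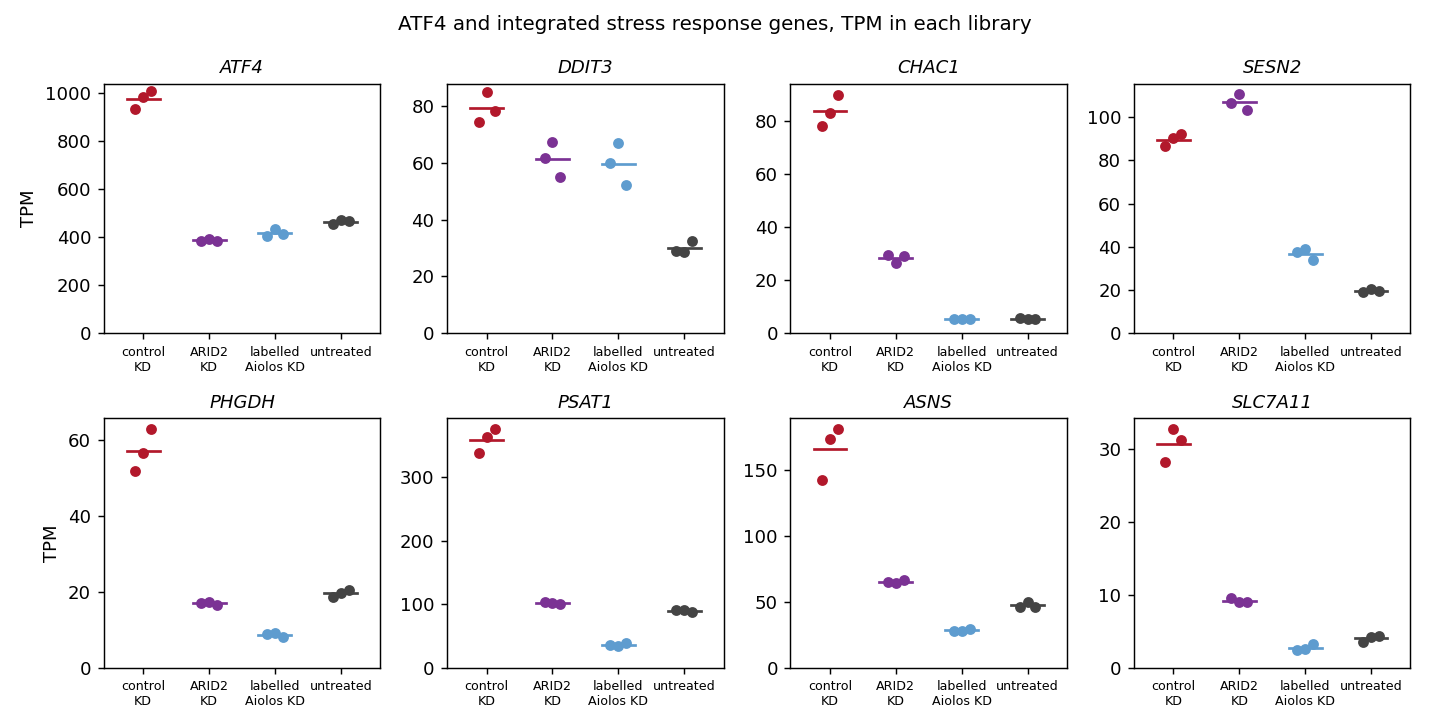
TPM of 8 integrated stress response genes in each of 3 libraries of control knockdown, ARID2 knockdown, labelled Aiolos knockdown and untreated cells; points are libraries, the line is the group mean, and each vertical axis starts at 0. Control knockdown libraries stand above untreated ones in every panel, and SESN2 is the only panel in which another group, ARID2 knockdown, stands above control knockdown.

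Amino acid transporters split, with 57.9% higher and 15.8% lower, against 17.3% and 28.4% among all genes. Of 19 tested 11 rose and 3 fell, the median being 0.26, and 5 of the 11 are also in the integrated stress response list. SLC7A11, the cystine importer, had 28.2, 32.7 and 31.2 TPM in control knockdown cells, against 3.58, 4.23 and 4.32 TPM in untreated cells (2.65 ± 0.09, adjusted p = 4.4e-14). SLC6A9, the glycine transporter, had 41.6, 51.1 and 56.2 TPM in control knockdown cells, against 9.59, 10.5 and 9.88 TPM in untreated cells (2.20 ± 0.10, adjusted p = 1.71e-12). The transporters of large neutral amino acids SLC7A5, SLC3A2 and SLC43A1 rose by 0.78, 0.91 and 1.54, and the glutamine carrier SLC1A5 by 0.75. The 3 that fell were SLC43A2 (−0.77), a further carrier of large neutral amino acids, SLC36A4 (−0.36) and SLC38A5 (−0.24).

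Cytosolic aminoacyl-tRNA synthetases, which charge tRNAs with their amino acids, fell into distinct sets. Among them 60% were higher and 20% lower, against 17.3% and 28.4% among all genes. Of 20 tested 12 rose, 4 fell and 4 did not pass, and no rise was smaller than that of LARS at 0.32. GARS, the glycine enzyme, had 329, 368 and 359 TPM in control knockdown cells, against 139, 138 and 142 TPM in untreated cells (1.33 ± 0.04, adjusted p = 1.03e-14). CARS, the cysteine enzyme, had 54.6, 57.8 and 59.5 TPM in control knockdown cells, against 23.8, 24.6 and 22.8 TPM in untreated cells (1.24 ± 0.05), and AARS, MARS and IARS rose by 1.00, 0.98 and 0.76. The enzymes for lysine (KARS, −0.17), arginine (RARS, −0.30), valine (VARS, −0.34) and the beta subunit of the phenylalanine enzyme (FARSB, −0.36) fell. HARS, the histidine enzyme, had 40.5, 38.1 and 41.8 TPM in control knockdown cells, against 42.2, 39.8 and 40.7 TPM in untreated cells, and these ranges overlap.

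Most secretory pathway genes were higher, by small amounts, against 17.3% higher and 28.4% lower among all genes. Of 38 genes of the unfolded protein response and secretory pathway 32 rose and 2 fell (PDIA6, −0.07, and KDELR1, −0.06), with a median of 0.29. HERPUD1, which assists degradation of proteins from the endoplasmic reticulum, had 496, 512 and 521 TPM in control knockdown cells, against 239.8, 244 and 239 TPM in untreated cells (1.08 ± 0.03, adjusted p = 1.08e-15). DNAJB9 rose by 0.85, the stress sensor ERN1 by 0.71, SEL1L by 0.68 and HYOU1 by 0.57. HSPA5, the main chaperone of this compartment, had 896, 943 and 938 TPM in control knockdown cells, against 750.1, 739 and 734 TPM in untreated cells, a rise of 0.32 ± 0.03 (adjusted p = 8.28e-08). With each library left out in turn, the number that fell was 0 or 1.

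Chaperones of the cytosol and mitochondria moved the opposite way. Of 24 chaperone and heat shock genes 0 rose and 21 fell, against 28.4% lower among all genes, with a median of −0.39; DNAJB4, BAG3 and HSPA6 did not pass. HSPA8, the constitutive HSP70, had 985, 992 and 1017 TPM in control knockdown cells, against 1745, 1741 and 1724 TPM in untreated cells (−0.80 ± 0.03, adjusted p = 3.76e-13). HSP90AB1, constitutive HSP90, had 1269.8, 1222 and 1202 TPM in control knockdown cells, against 1953, 1898 and 1912 TPM in untreated cells (−0.64 ± 0.03, adjusted p = 4.83e-12). HSP90AA1, its inducible sister, had 307, 292 and 287 TPM in control knockdown cells, against 515, 524 and 521 TPM in untreated cells (−0.82 ± 0.05, adjusted p = 2.24e-10). In each of these the lowest untreated library was above the highest control knockdown library.

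HSPH1, an HSP110 exchange factor, fell by 0.83, the HSP40 member DNAJB1 by 0.54 and the mitochondrial chaperonin pair HSPD1 and HSPE1 by 0.33 and 0.36. The subunits of the cytosolic chaperonin tested (TCP1, CCT2, CCT3 and CCT5) were all lower, as was HSF1. HSPA1A (−0.93) and HSPA1B (−0.92), the heat-inducible HSP70 genes, are near-identical and their split is uncertain. The chaperones that fell thus included both the constitutive and the inducible forms, whereas HSPA5, HYOU1 and HSPA13, HSP70-family members of the secretory pathway, rose (HSPA13 by 1.06 ± 0.06, adjusted p = 3.17e-11).

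**Figure D3:**
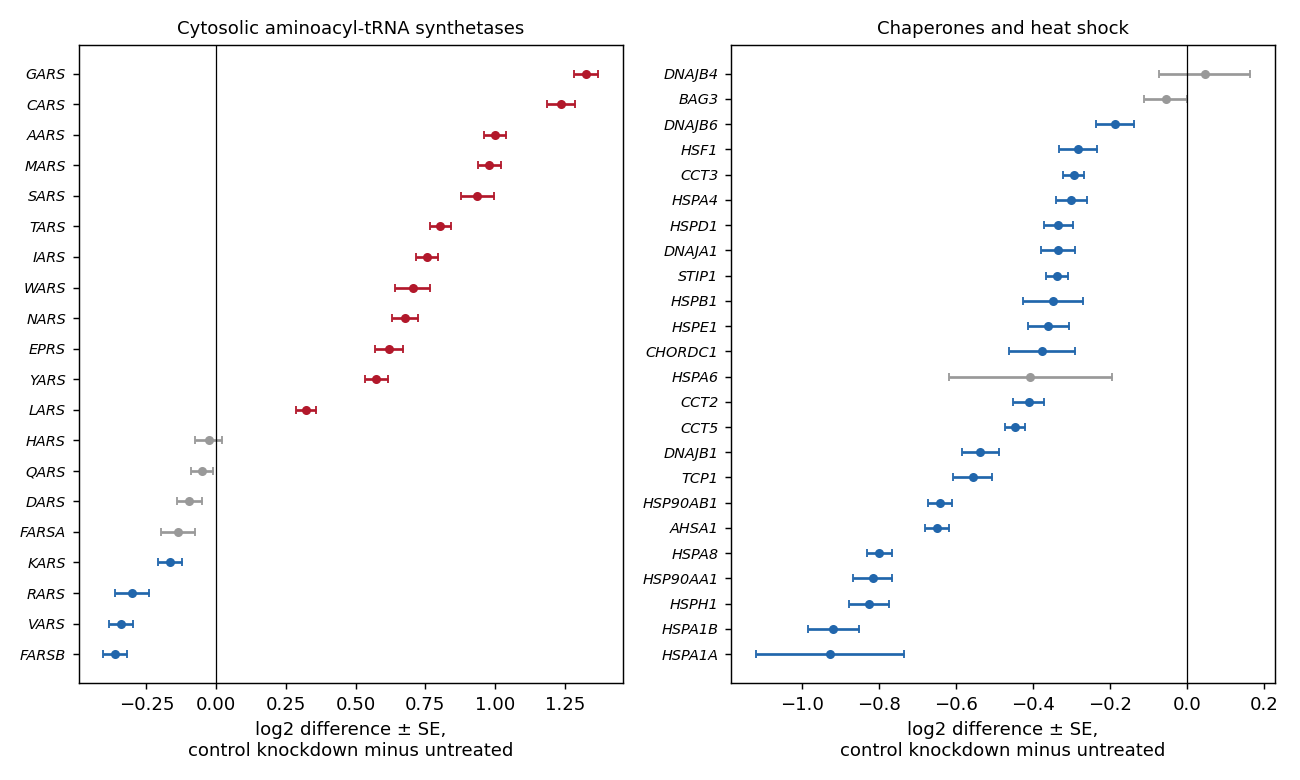
Log2 difference, control knockdown minus untreated, with its standard error, for 20 aminoacyl-tRNA synthetases (left) and 24 chaperone and heat shock genes (right), from 3 libraries a group; red rose, blue fell and grey did not pass an adjusted p of 0.05. Of the synthetases 12 lie to the right of 0, led by GARS at 1.33, and 21 chaperones are significantly to the left.

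Growth genes fell together, each by a modest amount. Among all genes 17.3% were higher and 28.4% were lower, the background for the counts of control knockdown against untreated cells here. MYC, the transcription factor that drives ribosome production and growth, had 368, 367 and 377 TPM in control knockdown cells, against 468, 475 and 495 TPM in untreated cells (−0.37 ± 0.03, adjusted p = 1.07e-08). Of 54 MYC targets 49 fell and 2 rose (SHMT2, which is also in the integrated stress response list, and CCND2 by 0.10), with a median of −0.35. SLC19A1, the folate carrier, fell by 0.81 and LDHA, lactate dehydrogenase A, by 0.59. Of 57 ribosome biogenesis genes 52 fell and 0 rose, with a median of −0.34; NCL, nucleolin, had 487, 478 and 472 TPM in control knockdown cells, against 650.4, 652 and 635 TPM in untreated cells (−0.43 ± 0.03, adjusted p = 1.42e-09). Of 38 proteasome genes 26 fell and 0 rose, with a median of −0.17. By contrast, of 79 cytosolic ribosomal protein genes 44 rose and 1 fell (RPL41), with a median of 0.10. Against untreated cells, 50 of the 54 MYC targets were lower in ARID2 knockdown and 52 in labelled Aiolos knockdown, with 1 higher in each. Of the 57 ribosome biogenesis genes 54 and 55 were lower, with 1 higher in each. Those 2 comparisons with untreated cells have their own backgrounds. Among all genes 32% were higher and 36% lower in ARID2 knockdown, and 36.5% higher and 35.7% lower in labelled Aiolos knockdown. Summed TPM of the MYC targets was 10510 to 10770 in control knockdown and 13120 to 13170 in untreated cells. In every other group, pomalidomide included, it was lower than in control knockdown, at 6131 to 9097.

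Cell cycle genes followed in part, against a background of 17.3% higher and 28.4% lower among all genes. Of 50 S phase genes 32 fell and 2 rose, with a median of −0.21. UHRF1, which maintains DNA methylation, fell by 0.80, and RRM2, a subunit of the enzyme that makes deoxynucleotides, had 257, 263 and 256 TPM in control knockdown cells, against 433, 433 and 431 TPM in untreated cells (−0.74 ± 0.06, adjusted p = 6.95e-09). Of 63 G2/M genes 19 fell and 8 rose on the TPM scale as deposited, but 7 fell and 12 rose after quantile normalization, so no direction is given for that list; MKI67 fell by 0.46 and HMMR, a spindle protein, rose by 0.65. CDKN1A, the cell cycle inhibitor p21, had 65.5, 67.1 and 63.3 TPM in control knockdown cells, against 25.5, 21.7 and 22.1 TPM in untreated cells (1.46 ± 0.06, adjusted p = 7.24e-13). Of 25 p53 targets and CDK inhibitors 12 rose and 1 fell (POLH); besides CDKN1A and SESN2, PHLDA3 rose by 1.08 and the death receptor TNFRSF10B by 0.83.

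**Figure D4:**
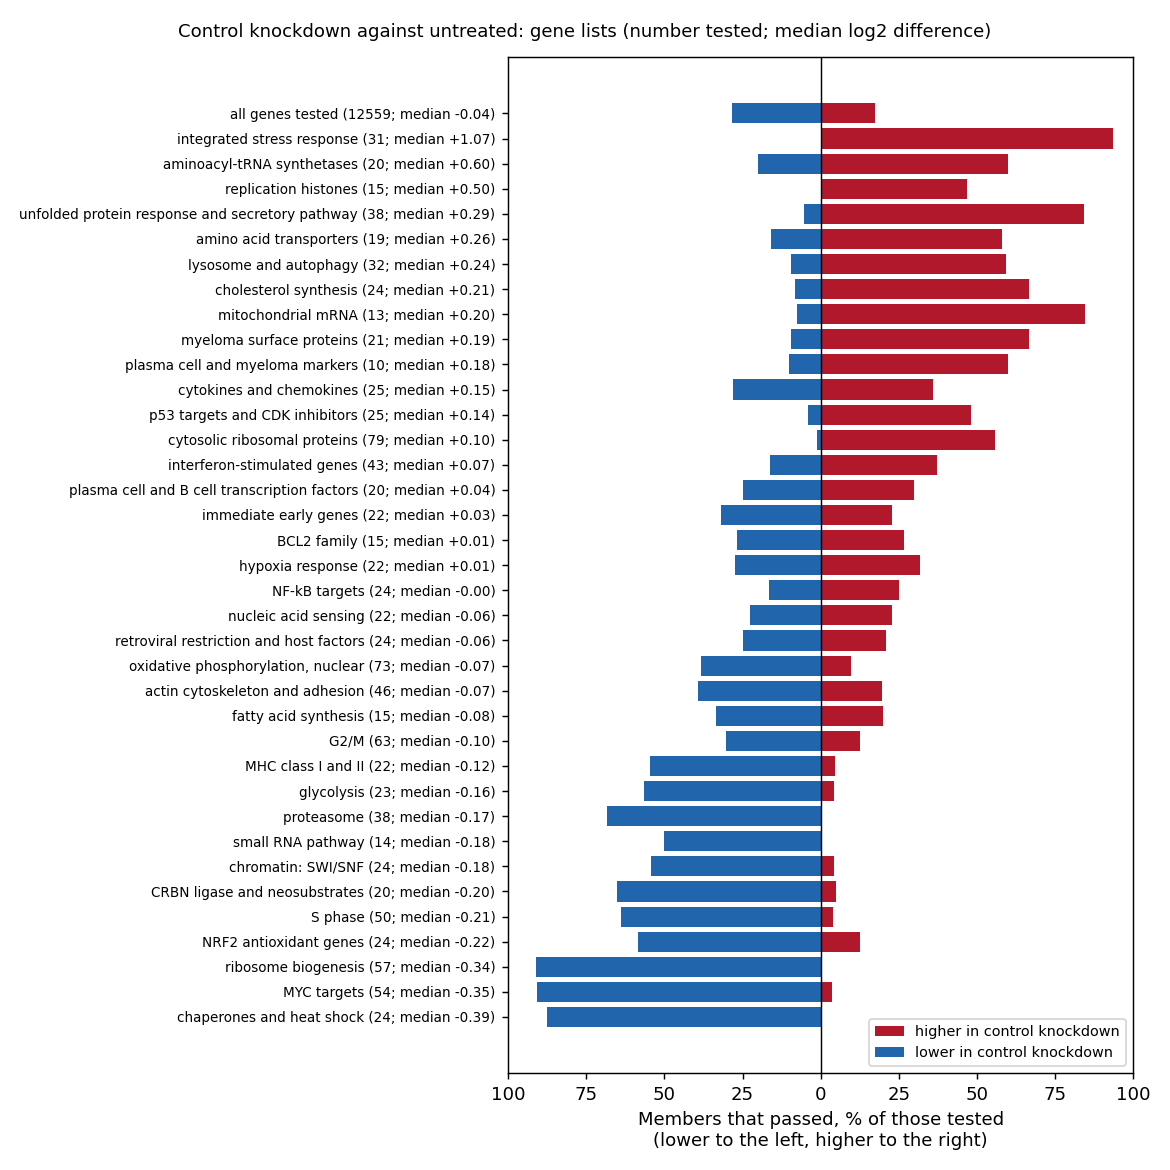
Share of the tested members of each gene list that passed an adjusted p of 0.05, control knockdown against untreated (3 libraries each): bars to the right are members higher in control knockdown cells and bars to the left are members lower, in % of those tested, with the number tested and the median log2 difference beside each name. Integrated stress response genes lie at the top of the lists, and MYC targets and chaperones lie at the bottom.

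Interferon-stimulated genes, nucleic acid sensors and retroviral restriction factors, which are known to answer viral vectors, had members that rose and members that fell, against 17.3% higher and 28.4% lower among all genes. Of 43 interferon-stimulated genes tested 16 rose (37.2%) and 7 fell (16.3%), with a median of 0.07. OAS1 and OAS3, which sense double-stranded RNA, rose by 1.27 ± 0.08 and 1.29 ± 0.09: OAS1 had 17.996, 20.2 and 20.6 TPM in control knockdown cells, against 8.52, 7.12 and 7.04 TPM in untreated cells. ISG20 rose by 0.85 and STAT2 by 0.66, whereas ISG15 fell by 0.35 and MX1 by 0.25. Of 22 nucleic acid sensors 5 rose (22.7%) and 5 fell (22.7%). Of 24 retroviral restriction and host factors 5 rose (20.8%) and 6 fell (25%); APOBEC3H, a cytidine deaminase that restricts retroviruses, rose by 1.39 ± 0.13, and MORC2, which silences integrated elements, fell by 0.45. Of 14 genes of the small RNA pathway, through which hairpins are processed, 0 rose and 7 fell, among them DGCR8 (−0.41), the exporter XPO5 (−0.36) and DROSHA (−0.30).

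Among genes changed at least 1.5-fold, the most abundant that rose was CCL3, the chemokine MIP-1alpha, which myeloma cells secrete and which acts on osteoclasts. CCL3 had 4498, 5126 and 5257 TPM in control knockdown cells, against 916, 934 and 880.4 TPM in untreated cells (2.44 ± 0.05, adjusted p = 4.69e-17). Its near-identical copy CCL3L3 rose by 2.66 ± 0.07, and the split of reads between them is uncertain. The related chemokine CCL4 was at 10.7, 10.9 and 8.86 TPM in control knockdown cells, against 3.46, 1.98 and 3.02 TPM in untreated cells. Its near-identical copy CCL4L2 had 31.6, 34.8 and 38.8 TPM in control knockdown cells, against 12.5, 17.0 and 13.4 TPM in untreated cells. The split of reads between CCL4 and CCL4L2 is uncertain too. Of 24 NF-kB targets, which include CCL3 and CCL4, 6 rose (25%) and 4 fell (16.7%), with a median of −0.0017. Among all genes 17.3% were higher and 28.4% lower. Of these targets ICAM1 was up by 0.98 and CXCL10 down at −0.79. ARHGAP9, a GTPase-activating protein, had 19.4, 23.0 and 24.9 TPM in control knockdown cells, against 2.44, 2.59 and 2.08 TPM in untreated cells (2.80 ± 0.12, adjusted p = 9.3e-13).

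The largest falls were smaller than the largest rises. CX3CR1, the fractalkine receptor, had 4.43, 3.73 and 3.55 TPM in control knockdown cells, against 12.1, 11.4 and 13.2 TPM in untreated cells (−1.43 ± 0.06, adjusted p = 1.78e-12). HES6, a basic helix-loop-helix factor, had 132, 116 and 121 TPM in control knockdown cells, against 272, 286 and 287 TPM in untreated cells (−1.19 ± 0.08, adjusted p = 9.59e-10). MYB, a proto-oncogene transcription factor, had 12.97, 12.7 and 12.2 TPM in control knockdown cells, against 27.1, 27.5 and 26.2 TPM in untreated cells (−1.04 ± 0.09, adjusted p = 1.17e-08). ID3, an inhibitor of basic helix-loop-helix factors, fell by 1.26 and the phosphodiesterase PDE4A by 1.12. The readthrough gene NEDD8-MDP1 ranked first among the named falls (−1.77 ± 0.56, adjusted p = 0.0144), is uncertain as a readthrough, and did not pass without control knockdown replicate 2 (−1.38, adjusted p = 0.082). Among abundant genes, PTMA fell by 0.59 and HMGN2, a nucleosome-binding protein, by 0.70.

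Genes at the centre of the study differed by at most 0.43 either way. ARID2 had 26.0, 25.4 and 25.4 TPM in control knockdown cells, against 32.4, 28.4 and 28.5 TPM in untreated cells (−0.21 ± 0.07, adjusted p = 0.0163); without untreated replicate 1, the highest, the difference was −0.14 (adjusted p = 0.109), and with nuclear genes only it was −0.17 (adjusted p = 0.0515). IKZF3 had 83.5, 79.2 and 81.4 TPM in control knockdown cells, against 98.0, 96.7 and 94.5 TPM in untreated cells (−0.24 ± 0.05, adjusted p = 0.000353), and IKZF1, which encodes Ikaros, fell by 0.27. IRF4, the plasma cell factor on which myeloma cells depend, had 619, 636 and 639 TPM in control knockdown cells, against 471, 459 and 476 TPM in untreated cells (0.43 ± 0.04, adjusted p = 9.31e-09). CRBN, the pomalidomide receptor, had 15.8, 13.5 and 14.4 TPM in control knockdown cells, against 16.3, 15.7 and 18.2 TPM in untreated cells, with overlap (−0.19 ± 0.07, adjusted p = 0.0456). That CRBN call was lost under 10 of 16 alternatives.

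The ARID2 hairpin and labelled Aiolos hairpin libraries show where these levels stood with other hairpins. These comparisons share the control knockdown libraries with the one above, so their values are set side by side only. In control knockdown minus ARID2 knockdown 7816 genes passed (62.2%), 3664 higher (29.2%) and 4152 lower (33.1%). In control knockdown minus labelled Aiolos knockdown 8522 passed (67.9%), 3853 higher (30.7%) and 4669 lower (37.2%). Of the 31 integrated stress response genes, 26 were higher and 2 lower in control knockdown than in ARID2 knockdown cells (median 1.23), and 29 were higher and 0 lower than in labelled Aiolos knockdown cells (median 1.59). The control knockdown mean was above both other hairpin groups for 28 of the 31. The share of listed TPM in these genes was 0.412% ± 0.0198 in control knockdown cells, 0.192% ± 0.00198 in ARID2 knockdown cells, 0.148% ± 0.00164 in labelled Aiolos knockdown cells and 0.195% ± 0.00234 in untreated cells (SD, n = 3 each). That sum hides members that moved. Against untreated cells, 18 of the 31 were higher and 9 lower in ARID2 knockdown (median 0.22). The all-gene shares there were 32% and 36%. In labelled Aiolos knockdown 6 were higher and 17 lower (median −0.16), beside 36.5% and 35.7% of all genes.

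Single genes differed in how they stood across the hairpins. ATF4 had 382, 394 and 384 TPM in ARID2 knockdown cells and 405, 432 and 414 TPM in labelled Aiolos knockdown cells, all below the control knockdown libraries (differences 1.33 and 1.22) and below the untreated ones. CHAC1 had 29.4, 26.6 and 29.1 TPM in ARID2 knockdown cells, between the control knockdown and untreated levels, and 5.25, 5.44 and 5.36 TPM in labelled Aiolos knockdown cells, at the untreated level. DDIT3 averaged 61.3 TPM in ARID2 knockdown and 59.6 TPM in labelled Aiolos knockdown cells, against 30.04 TPM in untreated cells, so that control knockdown stood only 0.37 and 0.41 above the other hairpins. SESN2 and PPP1R15A were lower in control knockdown than in ARID2 knockdown cells, by −0.25 (adjusted p = 0.00187) and −0.37 (adjusted p = 4.62e-07).

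The chaperones gave another picture. Their summed TPM was 5836 to 5973 in control knockdown and 8531 to 8561 in untreated cells. It was 5727 to 5885 in ARID2 knockdown and 5570 to 5922 in labelled Aiolos knockdown cells. Wild type cells given pomalidomide, which carry no knockdown label, also stood below untreated cells. Their sums were 5743 to 5778 at 24 h, 5521 to 5680 at 48 h and 6082 to 6512 at 72 h. HSP90AA1 averaged 295 TPM in control knockdown, 291 TPM in ARID2 knockdown, 281 TPM in labelled Aiolos knockdown and 519.9 TPM in untreated cells; the difference of control knockdown from ARID2 knockdown was 0.02 (adjusted p = 0.753) and from labelled Aiolos knockdown 0.07 (adjusted p = 0.221). HSPH1 averaged 47.2 TPM in control knockdown, 43.9 TPM in ARID2 knockdown, 27.5 TPM in labelled Aiolos knockdown and 84.4 TPM in untreated cells. Of the 24 chaperones 10 were higher (41.7%) and 6 lower (25%) in control knockdown than in ARID2 knockdown cells. Among all genes 29.2% were higher and 33.1% lower in that comparison. Against labelled Aiolos knockdown cells 14 were higher (58.3%) and 7 lower (29.2%), beside 30.7% and 37.2% of all genes. CDKN1A averaged 65.3 TPM in control knockdown, 585 TPM in ARID2 knockdown, 91.4 TPM in labelled Aiolos knockdown and 23.1 TPM in untreated cells. CCL3 averaged 4960.3 TPM in control knockdown cells and 910.1 TPM in untreated cells; ARID2 knockdown libraries were higher than control knockdown, at 8226, 8066 and 7561 TPM, and labelled Aiolos knockdown libraries were lower than untreated, at 599, 600.3 and 540.2 TPM.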

How the data were processed

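The authors deposited 1 table of gene expression in TPM for 21 libraries; per the labels' protocols, total RNA of MM.1S cells was prepared with TruSeq RNA kit v2, and the build was hg38 per the submitters' processing notes. The sources used here name no aligner, quantifier, annotation or depth. The listed values sum to 964157 to 965323 TPM in control knockdown and 968547 to 968652 TPM in untreated libraries, with 14158 to 14926 genes above 0. Of 17691 genes, the 12559 that reached 1 TPM in 3 or more libraries were tested on log2(TPM + 1) with limma 3.58.1 in R 4.3.3, with all 21 libraries in 7 groups of 3, an intensity trend, a two-sided test and Benjamini-Hochberg adjustment; 3 against 3 libraries allow no exact permutation p under 0.1. The fit was also run on simulated data with independent noise, which cannot show shared differences of culture or of TPM composition.

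The comparison and the 42 gene lists were chosen with earlier results of these data known. Named genes are ARID2, IKZF3, IKZF1, IRF4, MYC and CRBN; the 15 largest rises and falls among called genes whose libraries do not overlap and whose higher mean reaches 5 TPM; the 4 most abundant each way among genes changed at least 1.5-fold; and up to 4 members per list by smallest p. Further list members, eIF2 kinases and CCL4L2 were named after their values were seen. Gene symbols were matched to GENCODE release 29 (17464 to a single gene), and promoters to RefSeq GRCh38.p14. Alternatives were other scalings, pseudocounts, filters, the 6 libraries alone, a replicate block, no variance trend, and each library left out. The control hairpin's replicates are called biological by the submitters, with no culture details.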

Additional observations from a re-analysis of the deposited data

How the results depend on the processing

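Over 16 alternatives, 5059 to 6118 genes were called for control knockdown against untreated, against 5739 as reported, and leaving out each library in turn gave 5059 to 5229. Counts of genes at least 2-fold different changed most: a pseudocount of 0.1 gave 237 higher and 79 lower, against 88 and 21, since low genes are damped less, and leaving out each library gave 87 to 98 higher and 20 to 25 lower. The integrated stress response list had 28 to 31 genes higher and 0 lower, and the chaperone list 0 higher and 21 to 22 lower. Of the 167 named genes 7 lost the call under some alternative and 0 changed direction: ARID2, CRBN (adjusted p of 0.0599 to 0.213 where lost), CD68, MT-ND4, MT-ND6, NEDD8-MDP1 and SLC30A1; apart from the fits with fewer libraries, the cause was not tested. Same-numbered control knockdown and untreated libraries did not deviate together (r of 0.0117, −0.0231 and −0.0261 across genes), so the numbers were not taken as pairs; a replicate block gave 5661 called genes with all 21 libraries and 5672 with the 6. Control knockdown minus ARID2 knockdown gave 7153 to 7848 called genes and control knockdown minus labelled Aiolos knockdown 7693 to 8594. Depth is unknown from TPM, so counting error at low levels could not be given.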

Other observations

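Cholesterol synthesis and lysosomal genes also differed between control knockdown and untreated cells, beside a background of 17.3% higher and 28.4% lower among all genes. Of 24 cholesterol synthesis genes 16 rose and 2 fell, with a median of 0.21: TM7SF2, a sterol reductase, had 23.0, 22.5 and 21.9 TPM in control knockdown cells, against 10.7, 11.2 and 8.62 TPM in untreated cells (1.07 ± 0.09, adjusted p = 2.18e-08 by limma), and MSMO1 rose by 0.55. Of 15 fatty acid synthesis genes 3 rose (20%) and 5 fell (33.3%), close to the 17.3% and 28.4% of all genes. Of 32 lysosome and autophagy genes 19 rose and 3 fell, with a median of 0.24; NPC2, which moves cholesterol out of the lysosome, had 95.7, 91.8 and 92.2 TPM in control knockdown cells, against 53.4, 54.8 and 52.7 TPM in untreated cells, and WIPI1, an autophagosome protein, rose by 0.75. Of 24 NRF2 antioxidant genes 14 fell and 3 rose, the 3 being SLC7A11, FTL (0.36) and NFE2L2 itself (0.32); PIR fell by 0.73 and GCLC, which makes the glutathione precursor, by 0.55.

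Surface and immune genes changed in both directions. Among all genes 17.3% were higher and 28.4% were lower, the background for each count in this paragraph. Of 21 myeloma surface proteins 14 rose and 2 fell, among them GPRC5D, a target of myeloma immunotherapy, which had 177, 198 and 199.9 TPM in control knockdown cells, against 128, 120.2 and 124 TPM in untreated cells (0.62 ± 0.06, adjusted p = 3.38e-08 by limma), and TNFRSF17 (BCMA), which rose by 0.19. Of 22 MHC class I and II genes 12 fell and 1 rose, and CIITA, the class II transactivator, fell by 0.51. The chemokine receptors CXCR3 and CXCR4 fell by 0.88 and 0.81: CXCR4 had 49.5, 53.5 and 45.4 TPM in control knockdown cells, against 88.2, 85.9 and 87.6 TPM in untreated cells. TXNIP, a glucose-responsive inhibitor of thioredoxin chosen after its values were seen, had 112, 105 and 102 TPM in control knockdown cells, against 209, 206 and 223 TPM in untreated cells (−0.99 ± 0.04). PMAIP1, the BH3 protein NOXA, rose by 1.17, while the BCL2 family as a whole had 4 genes higher and 4 lower of 15 (26.7% each). Among 73 nuclear oxidative phosphorylation genes 28 fell (38.4%) and 7 rose (9.59%). Of 13 mitochondrial mRNAs 11 rose and 1 fell (MT-CO1), a count that dropped to 4 and 0 after quantile normalization. Of 24 SWI/SNF genes 13 fell and 1 rose, and of 23 glycolysis genes 13 fell and 1 rose. Of 25 cytokines and chemokines 9 rose and 7 fell, of 22 hypoxia response genes 7 rose (31.8%) and 6 fell (27.3%), and of 22 immediate early genes 5 rose (22.7%) and 7 fell (31.8%), against 17.3% higher and 28.4% lower among all genes. Of 46 actin cytoskeleton and adhesion genes 9 rose (19.6%) and 18 fell (39.1%). Of 20 CRBN ligase and neosubstrate genes 1 rose (5%) and 13 fell (65%). Of the 15 histone genes listed and tested 7 rose (46.7%) and 0 fell. That list, named replication histones, was not limited to them, since it also held H1F0, which did not pass the filter. Its count is therefore not a result about replication histones alone. HIST1H2AJ, a histone gene outside that list, was lower (−2.06 ± 0.38, adjusted p = 0.000173 by limma). It averaged 0.32 TPM in control knockdown and 4.30 TPM in untreated cells.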
